A study of Mus musculus with 12 samples.

Results

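The genes of the classical MHC class I pathway were followed through 12 RNA-seq libraries of mouse bone marrow cells sorted as hematopoietic stem cells (HSCs). They are 10 genes taken by name out of 31340 gene rows, namely the heavy chain genes H2-K1 and H2-D1, the light chain gene B2m, the transport and loading genes Tap1, Tap2 and Tapbp, the immunoproteasome subunit genes Psmb8, Psmb9 and Psmb10, and the regulator Nlrc5. Each stood on 1 row and passed the filter on low values in every comparison. The libraries formed 4 groups of 3, labelled Ctrl, IR, Ab_IR and L_IR. All mice were wild type, the study's methods name C57BL/6 as the strain, and no age is given in the sources used here. IR stands for ionizing radiation, and the methods describe a single whole-body dose of 5 Gy from a cobalt source. Cells were collected 3 days after exposure, and the extraction text gives that day for every sample, Ctrl included. The labels do not spell out Ab or L, which are used here as given, and both groups were irradiated. For short, Ab_IR and L_IR are called the treated groups, without knowledge of what Ab and L are. According to the methods the sort kept cells without lineage markers, positive for Sca-1 and c-Kit and negative for Flt3 and CD34. Nothing in the labels says whether the 3 samples of a group came from separate animals, so p-values measure only the spread between these samples.

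MHC class I molecules show peptides from inside a cell to CD8+ T cells, and nearly all nucleated cells carry them. Proteins are cut by the proteasome, whose catalytic subunits PSMB5, PSMB6 and PSMB7 can be replaced by PSMB8, PSMB9 and PSMB10 to give the immunoproteasome. The TAP1 and TAP2 transporter moves the peptides into the endoplasmic reticulum, where tapasin, the product of Tapbp, bridges it to a heavy chain paired with beta-2 microglobulin. NLRC5 is a transactivator that acts on class I genes through a composite promoter element with a CRE-like box and an inverted CCAAT box, and interferons induce most genes of the pathway. Hematopoietic stem cells express class I molecules as well.

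Upstream sequence is shown as a description. The group means of all 10 genes were lowest in IR, and a link between sequence and level was not tested. RefSeq (GRCm38.p6) start sites with 250 bases before them were at hand for 8 of the 10 genes, the others being Tap2 and Nlrc5. In H2-K1, H2-D1 and B2m the letters TGACG (a CRE-like box) were followed, 20 bases on, by ATTGG (an inverted CCAAT box). These stretches of 30 bases are printed with both boxes in capitals, 5′ to 3′ on the strand of the gene.
H2-K1, chr17:34000359-34000388, minus strand: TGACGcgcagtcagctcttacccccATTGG
H2-D1, chr17:35262993-35263022, plus strand: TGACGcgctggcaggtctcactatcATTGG
B2m, chr2:122147609-122147638, plus strand: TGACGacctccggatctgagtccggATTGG
Between H2-K1 and H2-D1, 23 of the 30 bases were identical, whereas B2m shared 13 with H2-K1 and 12 with H2-D1. The spacing of 20 bases was read from these genes, and it occurred on either strand in 30 of 32851 RefSeq promoters, or 0.0913%. With any spacing of up to 30 bases, the same pair of boxes occurred in 0.785% of promoters and in the same 3 of the 8 genes.

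All 250 bases of the H2-D1 and Psmb8 windows lay in exons of GENCODE M21, as did the 225 bases between Tap1 and Psmb9. The H2-D1 and Psmb8 windows are upstream of RefSeq starts, while the GENCODE genes begin before them, at 35262730 and 34197721. These windows are not printed whole. The window upstream of H2-K1 overlapped no exon of GENCODE M21, and that of B2m only with its last base, which is left off here. In both, capitals mark every match to a box searched on both strands, namely the core of the interferon-stimulated response element (GAAA, any 2 bases, GAAA), the interferon-gamma activated site (TTC, any 3 bases, GAA), the CCAAT box, the CRE-like TGACG and the kappa B consensus, whose matches in H2-K1 overlap.
H2-K1, chr17:34000348-34000597, minus strand: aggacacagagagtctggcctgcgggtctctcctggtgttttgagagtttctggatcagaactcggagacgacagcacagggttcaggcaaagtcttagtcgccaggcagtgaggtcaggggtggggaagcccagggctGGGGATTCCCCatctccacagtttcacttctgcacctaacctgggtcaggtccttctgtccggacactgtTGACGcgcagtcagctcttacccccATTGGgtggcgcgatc
B2m, chr2:122147437-122147685, plus strand: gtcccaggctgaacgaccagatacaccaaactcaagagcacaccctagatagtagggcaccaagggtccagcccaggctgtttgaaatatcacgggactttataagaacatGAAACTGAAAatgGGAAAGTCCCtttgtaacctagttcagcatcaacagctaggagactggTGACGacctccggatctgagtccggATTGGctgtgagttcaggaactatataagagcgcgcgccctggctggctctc
A kappa B match was found in H2-K1, H2-D1 and B2m, against 3.9% of all promoters. An exact match to the response element core was found in B2m only, at bases -139 to -130 from the start, against 2.98% of all promoters. Inexact matches were not searched, so small letters do not show that an element is absent. The activated site was found in Psmb8 only, at bases -97 to -89, against 7.02%. CCAAT was found in 6 of the 8 genes (33.8% of all promoters) and TGACG in 5 (17.8%), counting for both Tap1 and Psmb9 the shared stretch of 225 bases between their divergent starts. The upstream sequences of H2-K1 and H2-D1 matched at 166 of 190 aligned bases, or 87.4%. These matches describe letters and do not show that a factor was bound.

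Libraries of a group resembled each other, with Pearson's r of log2(FPKM + 1) across 12699 genes of 0.990 to 0.995 within IR, Ab_IR and L_IR and 0.954 to 0.990 within Ctrl. Levels are FPKM (fragments per kilobase of transcript, scaled to the library), which allow genes to be compared per length. Since read depth is unknown, no counting interval accompanies them. In Ctrl replicate 1, 44.1% of the gene rows were at 0, compared with 24.7% to 27.3% in each other library. The libraries also split on heart transcripts, as seen for Nppa, an atrial hormone gene. It reached 51.2 to 63.9 FPKM in the IR libraries and the other Ctrl libraries and at most 0.26 FPKM in the remaining 7. IR and Ctrl can be compared within that split by leaving out Ctrl replicate 1, and those values stand beside the results. For IR against Ab_IR or L_IR the split and the groups cannot be told apart except through Ctrl replicate 1. Of 9 HSC marker genes, Mecom, Hoxb5, Fgd5 and Slamf1 stayed under 1 FPKM in all 12 libraries, and 4 passed the filter on low values. In IR against Ctrl, 2 of these fell, Kit among them (-1.63), Ly6a rose (0.75, adjusted p 0.0145) and Hlf did not pass. Of the genes for the sorted surface proteins, Kit (c-Kit) was at 23.5 ± 2.09 FPKM in Ctrl and 6.87 ± 0.155 FPKM in IR (SD, n = 3). Ly6a (Sca-1) was at 35.1 ± 8.06 and 58.6 ± 4.26 FPKM in that order. Flt3, the gene of a surface protein that the sort excluded, was at 10.5 ± 1.47 FPKM in Ctrl and 1.08 ± 0.131 FPKM in IR. Its level was 7.50 ± 0.0643 FPKM in Ab_IR and 5.87 ± 0.237 FPKM in L_IR.

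The class I genes were lower after irradiation. In IR against Ctrl, 7 of the 10 genes fell and none rose, by a median log2 fold change of -0.57 over all 10, where the median of the 12072 genes tested was -0.05. Tap1 fell by 1.26 and H2-K1 by 1.19 on the log2 scale, and these were the only genes of the 10 past the study's threshold of a 2-fold change. Psmb8, Psmb9 and Psmb10 did not pass, but did so without Ctrl replicate 1, when all 10 genes were lower. The test was limma on log2(FPKM + 1), with a call where the Benjamini-Hochberg adjusted p over all genes lay under 0.05. By this rule 43.1% of all genes tested were called, and 25.5% were called lower. With the 2-fold threshold, 4.57% of genes were called lower. The IR libraries all lay below the Ctrl libraries for 8 of the 10 genes, as for 32.8% of all genes tested.

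**Figure D1:**
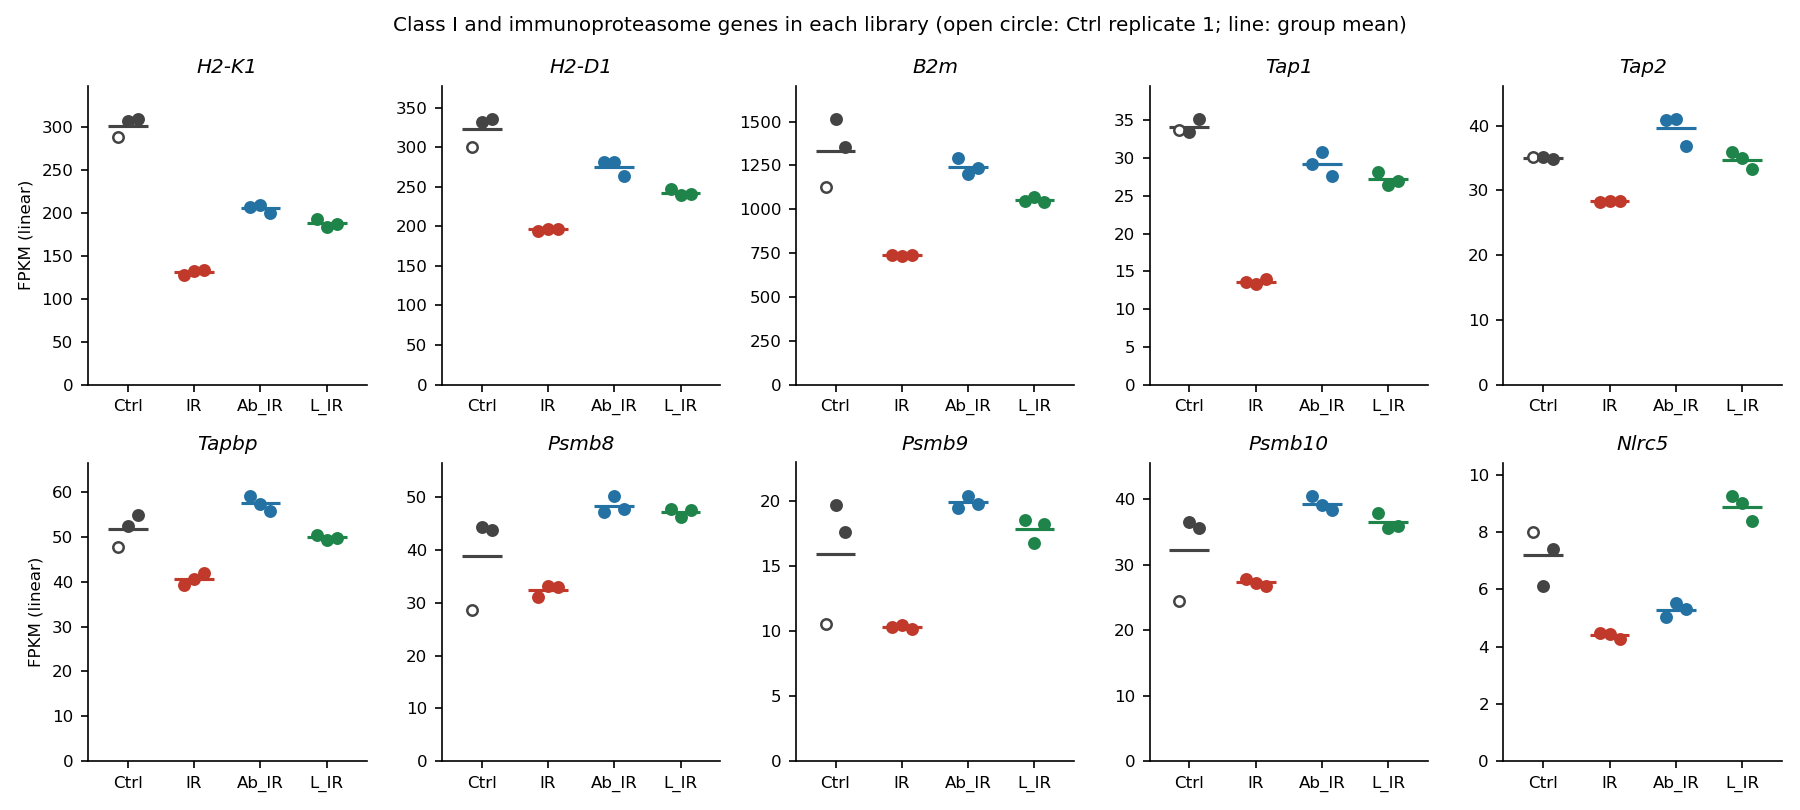
FPKM (linear axis from 0) of the 10 genes in each of the 12 libraries, with a line at the mean of the 3 libraries of a group and an open circle for Ctrl replicate 1. The IR libraries lie below all other libraries for 8 genes, and for Psmb8 and Psmb10 only Ctrl replicate 1 lies below them.

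H2-K1 encodes a classical heavy chain and lies at chr17:33996017-34000347 on the minus strand (GRCm38, GENCODE M21). Its level was 289, 307 and 309 FPKM in Ctrl and 128, 132 and 133 FPKM in IR. It was 207, 209 and 199 FPKM in Ab_IR and 192, 184 and 187 FPKM in L_IR. No groups overlapped, and the order from high to low was Ctrl, Ab_IR, L_IR and IR. In IR it fell by 1.19 on the log2 scale (SE 0.0618, adjusted p 4.85e-05), which left 43.5% of the Ctrl mean. Ab_IR was higher than IR by 0.64 (adjusted p 4.56e-06) and L_IR by 0.51 (adjusted p 6.00e-06).

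H2-D1, the other classical heavy chain gene of this strain, lies at chr17:35262730-35267499 on the plus strand. It was listed at 301, 332 and 336 FPKM in Ctrl and at 195, 197 and 197 FPKM in IR. In Ab_IR its values were 281, 282 and 264 FPKM, and in L_IR they were 247, 239.85 and 241 FPKM. The groups stood in the same order as for H2-K1 and again without overlap. Its level in IR was 60.8% of the Ctrl mean (log2 fold change -0.71, SE 0.0690, adjusted p 0.000488). Relative to IR, it rose by 0.49 on the log2 scale with Ab_IR (adjusted p 2.21e-05) and by 0.30 with L_IR (adjusted p 2.28e-05). Reads of the class I heavy chain genes can be shared between near-identical copies, and how the authors' counting split them is not given in the sources used here.

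The ratio of H2-K1 to H2-D1 within a library does not depend on how libraries are scaled. It was chosen after the values were seen. The ratio was 0.959, 0.924 and 0.920 in Ctrl and 0.657, 0.671 and 0.676 in IR. It was 0.735, 0.741 and 0.756 in Ab_IR and 0.778, 0.765 and 0.777 in L_IR. H2-K1 was lower relative to H2-D1 in all IR libraries than in any other, and in Ab_IR and L_IR the ratio lay between IR and Ctrl without overlap. For every pair of groups the exact permutation p (two-sided) was 0.1, which is as low as 3 libraries against 3 can go.

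B2m encodes beta-2 microglobulin, the light chain shared by all class I molecules, and lies at chr2:122147686-122153083 on the plus strand. It had the highest level of the 10 genes, at 1130.0, 1514 and 1353 FPKM in Ctrl and 738, 734 and 738 FPKM in IR. Ab_IR held 1294, 1199.9 and 1236 FPKM and L_IR 1045, 1071 and 1043 FPKM. IR was the lowest group and L_IR the next, whereas Ab_IR overlapped Ctrl. The log2 fold change in IR was -0.84 (SE 0.119, adjusted p 0.00217), and -0.96 without Ctrl replicate 1. B2m rose by 0.75 in Ab_IR (adjusted p 3.52e-06) and by 0.51 in L_IR (adjusted p 2.36e-06) relative to IR.

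Heavy chain transcripts were next set against those of the light chain. The sum of H2-K1 and H2-D1 over B2m was 0.522, 0.422 and 0.476 in Ctrl and 0.437, 0.448 and 0.448 in IR, so that IR lay inside the range of Ctrl (exact permutation p 0.4, two-sided). It was 0.377, 0.409 and 0.375 in Ab_IR and 0.420, 0.395 and 0.410 in L_IR, below all IR libraries in both groups. The difference from IR was -0.20 on the log2 scale in Ab_IR and -0.12 in L_IR, each with exact permutation p 0.1.

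Tap1 encodes a subunit of the peptide transporter and lies at chr17:34187553-34197225 on the plus strand. Its values were 33.78, 33.45 and 35.15 FPKM in Ctrl and 13.62, 13.30 and 13.94 FPKM in IR. It stood at 29.15, 30.79 and 27.56 FPKM in Ab_IR and 28.09, 26.39 and 27.01 FPKM in L_IR. The IR libraries lay far below the other 9, while Ab_IR and L_IR overlapped each other and stayed under Ctrl. Tap1 fell 2.40-fold in IR (adjusted p 3.03e-05), and it was 2.06-fold higher in Ab_IR (adjusted p 2.08e-06) and 1.93-fold higher in L_IR (adjusted p 9.89e-07) than in IR.

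Tap2 encodes the partner subunit of the same transporter, at chr17:34203527-34216321 on the plus strand, and moved much less. It was listed at 35.12, 35.18 and 34.88 FPKM in Ctrl, 28.23, 28.28 and 28.33 FPKM in IR, 40.84, 40.99 and 36.89 FPKM in Ab_IR and 35.91, 35.02 and 33.23 FPKM in L_IR. In IR it fell by 0.30 on the log2 scale (SE 0.0508, adjusted p 0.00437), a small change against a narrow spread. The Ab_IR libraries lay above all Ctrl libraries, and L_IR overlapped Ctrl.

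Tapbp, at chr17:33915899-33929292 on the plus strand, resembled Tap2. Its values were 47.81, 52.50 and 54.87 FPKM in Ctrl, 39.32, 40.52 and 42.01 FPKM in IR, 59.17, 57.42 and 55.80 FPKM in Ab_IR and 50.42, 49.32 and 49.80 FPKM in L_IR. It fell by 0.34 in IR (SE 0.0713, adjusted p 0.0101). That call was lost without IR replicate 1 or without IR replicate 2, with adjusted p up to 0.0545 when single libraries were left out. Relative to IR, Tapbp rose by 0.49 in Ab_IR and by 0.29 in L_IR.

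The calls for the immunoproteasome genes in IR against Ctrl turned on Ctrl replicate 1. Psmb8, at chr17:34197721-34201454 on the plus strand, encodes the subunit that replaces PSMB5. It was listed at 28.64, 44.27 and 43.70 FPKM in Ctrl and at 31.01, 33.23 and 33.04 FPKM in IR. Psmb9, at chr17:34181987-34187764 on the minus strand, replaces PSMB6 and had 10.58, 19.75 and 17.60 FPKM in Ctrl and 10.30, 10.44 and 10.13 FPKM in IR. Psmb10, at chr8:105935735-105938444 on the minus strand, replaces PSMB7 and had 24.44, 36.60 and 35.68 FPKM in Ctrl and 27.84, 27.27 and 26.78 FPKM in IR. In each of the 3 genes Ctrl replicate 1 was far below the other Ctrl libraries and near the level of IR.

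With all 6 libraries the log2 fold changes in IR were -0.23 for Psmb8 (SE 0.168, adjusted p 0.317), -0.55 for Psmb9 (SE 0.211, adjusted p 0.0808) and -0.21 for Psmb10 (SE 0.153, adjusted p 0.312). Without Ctrl replicate 1, that is within the libraries carrying heart transcripts, they were -0.43 (adjusted p 0.000587), -0.80 (adjusted p 0.000123) and -0.39 (adjusted p 0.000537). The other 7 genes moved less on leaving out that library, to between -0.30 for Tap2 and -1.27 for Tap1, and all stayed past the threshold.

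The treated groups held higher levels of all 3 subunit genes. Psmb8 reached 47.26, 50.29 and 47.73 FPKM in Ab_IR and 47.82, 46.16 and 47.50 FPKM in L_IR. Psmb9 stood at 19.50, 20.43 and 19.81 FPKM in Ab_IR and 18.53, 16.76 and 18.28 FPKM in L_IR. Psmb10 stood at 40.55, 39.05 and 38.30 FPKM in Ab_IR and 37.96, 35.65 and 35.97 FPKM in L_IR. All 6 treated libraries lay above the 3 IR libraries for each gene. Of the 3, Psmb9 rose most, with a log2 fold change of 0.89 for Ab_IR (adjusted p 1.25e-06). The value for L_IR was 0.74 (adjusted p 8.39e-06). Psmb8 rose by 0.56 and 0.53 and Psmb10 by 0.51 and 0.41 in that order.

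Each immunoproteasome subunit was then set against the constitutive subunit whose place it takes, within each library. The ratio of Psmb8 to Psmb5 was 0.745, 0.649 and 0.714 in Ctrl and 0.423, 0.476 and 0.478 in IR, then 0.760, 0.791 and 0.775 in Ab_IR and 0.829, 0.816 and 0.858 in L_IR. That of Psmb9 to Psmb6 was 0.423, 0.401 and 0.348 in Ctrl and 0.210, 0.208 and 0.194 in IR, then 0.376, 0.350 and 0.366 in Ab_IR and 0.347, 0.350 and 0.379 in L_IR. That of Psmb10 to Psmb7 was 1.03, 0.996 and 1.18 in Ctrl and 0.810, 0.796 and 0.781 in IR, then 1.12, 1.14 and 1.11 in Ab_IR and 1.24, 1.16 and 1.15 in L_IR. All 3 ratios were lower in every IR library than in all other libraries, Ctrl replicate 1 included.

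On the log2 scale the differences of IR from Ctrl were -0.61 for Psmb8 over Psmb5, -0.93 for Psmb9 over Psmb6 and -0.42 for Psmb10 over Psmb7. The differences of Ab_IR from IR were 0.76, 0.83 and 0.50 in that order, and those of L_IR from IR 0.86, 0.81 and 0.57. By exact permutation (two-sided) each of these differences had p 0.1. With 3 libraries in a group no p can pass 0.05, so the ratios are descriptions, also after adjustment over all ratios and pairs of groups. Of the constitutive genes, none passed limma in IR against Ctrl. Ctrl replicate 1 was the lowest Ctrl library for each of them. The Ctrl values were 38.46, 68.19 and 61.23 FPKM for Psmb5 and 25.02, 49.20 and 50.59 FPKM for Psmb6. For Psmb7 they were 23.77, 36.74 and 30.16 FPKM. Against IR, Psmb5 was lower with Ab_IR (log2 fold change -0.18, adjusted p 0.00327) and further with L_IR (-0.32, adjusted p 9.99e-05). Psmb7 was lower with L_IR (-0.15, adjusted p 0.000888), and Psmb6 passed in neither.

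**Figure D2:**
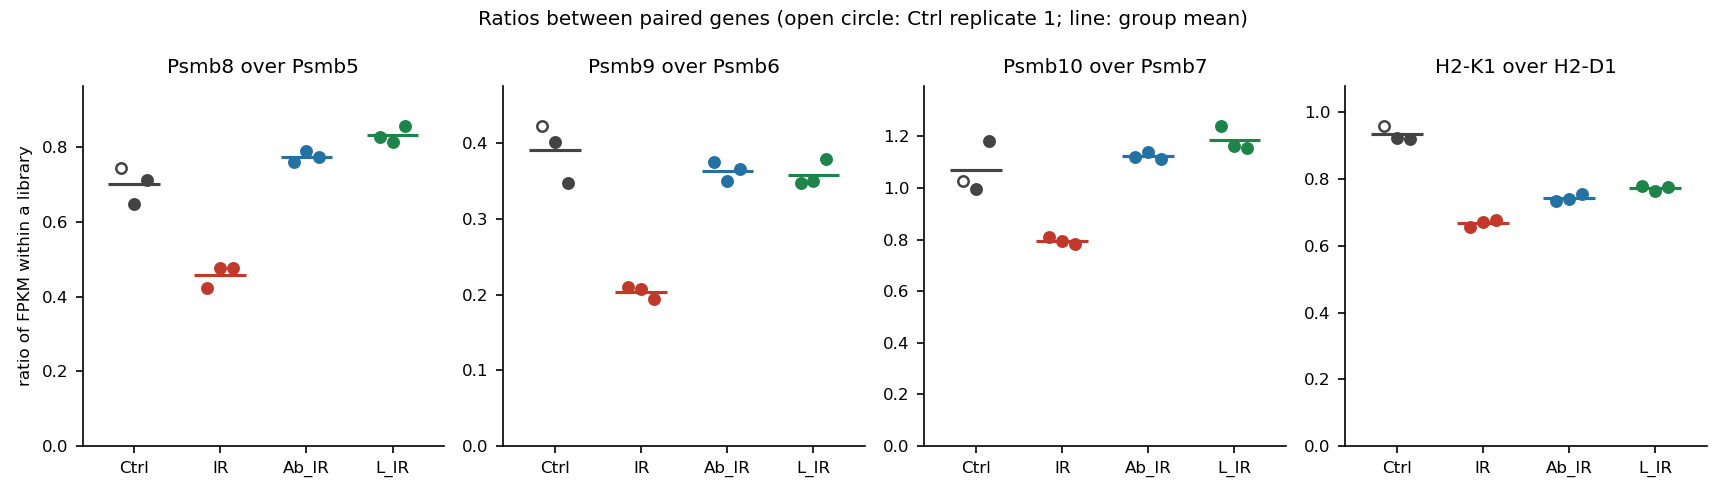
Ratio of FPKM within each library (linear axis from 0) for the 3 immunoproteasome genes over their constitutive counterparts and for H2-K1 over H2-D1, with a line at the group mean and an open circle for Ctrl replicate 1. In each panel the 3 IR libraries lie below the other 9, for example at 0.194 to 0.210 for Psmb9 over Psmb6.

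Nlrc5, the transactivator of class I genes, lies at chr8:94434356-94527272 on the plus strand and had the lowest level of the 10 genes. Its values were 8.02, 6.12 and 7.43 FPKM in Ctrl and 4.49, 4.43 and 4.26 FPKM in IR. They were 5.05, 5.54 and 5.30 FPKM in Ab_IR and 9.28, 9.02 and 8.39 FPKM in L_IR. The groups did not overlap, and unlike the other 9 genes it stood higher in L_IR than in Ab_IR. It fell by 0.60 on the log2 scale in IR (SE 0.10, adjusted p 0.00430). L_IR was higher than IR by 0.87 (SE 0.0456, adjusted p 5.42e-06) and Ab_IR by 0.22 (SE 0.0483, adjusted p 0.00465). The rise in Ab_IR was lost under quantile normalization (0.10, adjusted p 0.106) and when the heart transcript split entered the model (0.0035, adjusted p 0.981), an adjustment made through Ctrl replicate 1 alone.

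Ab_IR and L_IR were each compared with IR. In these comparisons the groups and the heart split cannot be told apart except through Ctrl replicate 1. All 10 genes rose in Ab_IR against IR, with a median log2 fold change of 0.54, where the median of all genes tested was 0.06. All 10 rose in L_IR against IR as well, with a median of 0.51 against 0.07 for all genes. Called higher were 39.4% of the 12067 genes tested for Ab_IR and 40.8% of the 12163 tested for L_IR, and the groups did not overlap upward for 41.4% and 43.1%. Only Tap1 in Ab_IR passed the 2-fold threshold, as did 5.11% of genes higher in Ab_IR and 4.09% in L_IR. Both comparisons share the IR libraries. The heart split can enter the model only through Ctrl replicate 1, the Ctrl library with low Psmb values. In that fit the rises of Psmb8, Psmb9 and Psmb10 became 1.17, 1.65 and 1.06 in Ab_IR and 1.13, 1.5 and 0.95 in L_IR. These larger values rest on that single library. B2m then rose by 1.09 in Ab_IR and 0.86 in L_IR, and H2-D1 and Tapbp rose in L_IR by 0.45 each.

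**Figure D3:**
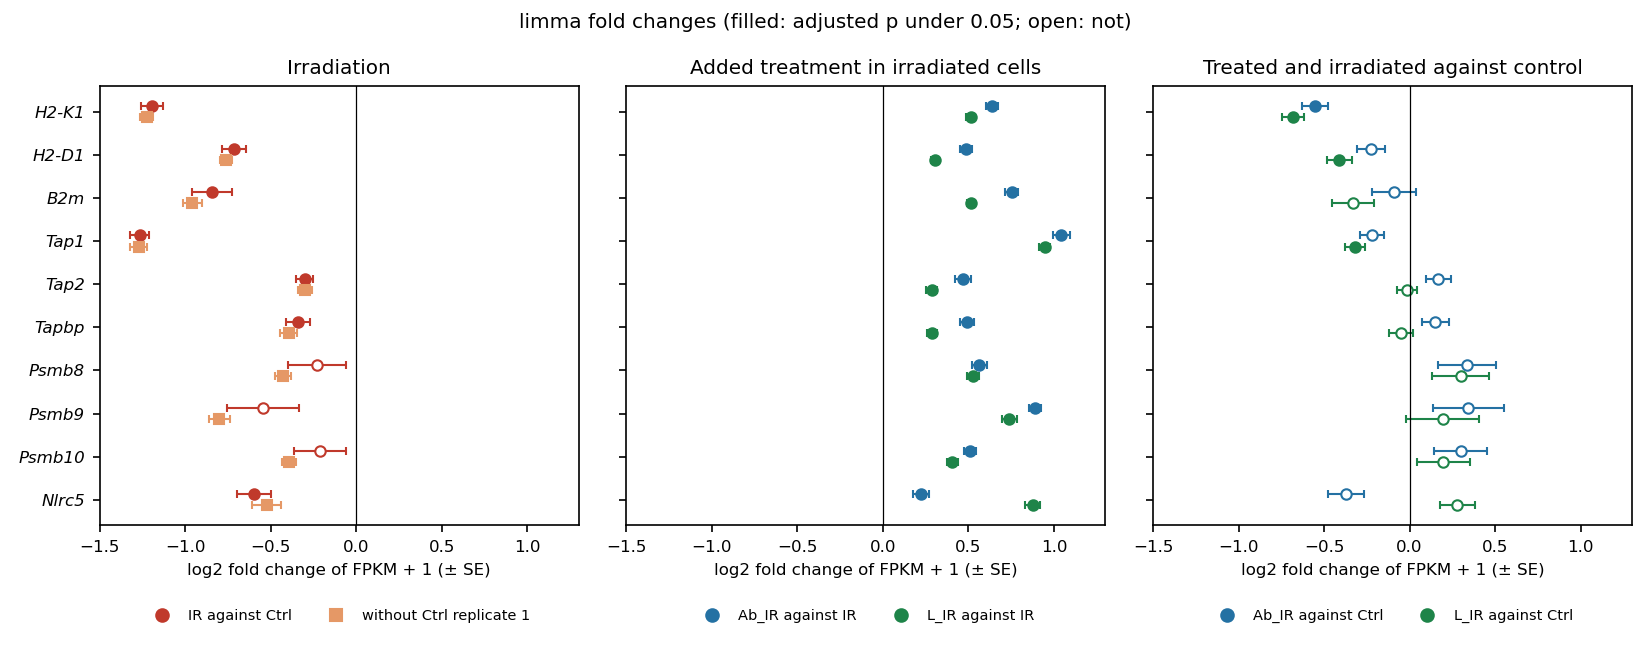
limma log2 fold changes of FPKM + 1 with standard errors for the 10 genes, filled where the adjusted p was under 0.05. Squares in the left panel leave out Ctrl replicate 1, and all points of the middle panel lie above 0, from 0.22 for Nlrc5 to 1.04 for Tap1.

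Set directly against Ctrl, Ab_IR and L_IR differed in few of these genes. H2-K1 was lower in Ab_IR, by 0.55 on the log2 scale (SE 0.0736, adjusted p 0.0166), and stood at 68.0% of the Ctrl mean. It was the only gene of the 10 called, beside 0.651% of all genes called lower and 2.1% called in either direction. The call was lost on leaving out any library of these groups except Ctrl replicate 1, with adjusted p up to 0.134. In L_IR 3 genes were lower than in Ctrl, namely H2-K1 (-0.68, adjusted p 0.00173), H2-D1 (-0.41, adjusted p 0.0199) and Tap1 (-0.32, adjusted p 0.0235), beside 4.08% of all genes called lower and 8.84% called in either direction. The H2-K1 call in L_IR held without each single library (adjusted p at most 0.0230). That of H2-D1 was lost without any library except Ctrl replicate 1, and that of Tap1 without Ctrl replicate 3 or any L_IR library, so that 1 to 5 genes were called. Without Ctrl replicate 1, B2m was lower in L_IR (-0.44, adjusted p 0.00406) and Nlrc5 higher (0.35, adjusted p 0.0362). H2-D1 was then lower in Ab_IR (-0.28, adjusted p 0.0483). Ctrl replicate 1 was the only Ctrl library on the treated groups' side of the heart split. Without it, the difference from Ctrl and that split cannot be told apart.

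The mean levels were also set against Ctrl, and some lay above it. In percent of the Ctrl mean, H2-K1, H2-D1, B2m and Tap1 stood at 68.0, 85.4, 93.3 and 85.5 in Ab_IR and at 62.2, 75.1, 79.0 and 79.6 in L_IR. Tap2 and Tapbp stood at 112.9 and 111.1 in Ab_IR and at 99.0 and 96.4 in L_IR. Psmb8, Psmb9 and Psmb10 stood at 124.6, 124.6 and 121.9 in Ab_IR and at 121.3, 111.8 and 113.3 in L_IR, with the low values of Ctrl replicate 1 in the Ctrl mean. Nlrc5 stood at 73.7 in Ab_IR and at 123.7 in L_IR. None of the differences of Tap2, Tapbp and the Psmb genes from Ctrl passed the test in either group. With the heart split as a term, Ctrl is set by Ctrl replicate 1 alone, since the treated libraries fall on its side of the split. In that fit Psmb8, Psmb9 and Psmb10 were above Ctrl by 0.74, 0.85 and 0.66 in Ab_IR and by 0.70, 0.70 and 0.56 in L_IR. Without Ctrl replicate 1 these differences were 0.14, 0.09 and 0.12 in Ab_IR and 0.10, -0.06 and 0.015 in L_IR. None of these differences passed the test. Without that library, the difference from Ctrl and the heart split cannot be told apart. With the heart split, Tapbp (0.26) and Tap2 (0.17) were also above Ctrl in Ab_IR, and in L_IR they stood at 0.06 and -0.02. Without that term, Tap2 passed in Ab_IR in the joint fit of the 12 libraries (0.17, adjusted p 0.0386).

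Ab_IR and L_IR were also compared with each other. In Ab_IR, 6 genes were higher and Nlrc5 was lower, where 18.2% of the 12194 genes tested were called higher and 19.8% lower. B2m was higher by 0.24 (adjusted p 0.00426), Tapbp by 0.20 (adjusted p 0.00482), H2-D1 by 0.18 (adjusted p 0.0101), Tap2 by 0.18 (adjusted p 0.0319), Psmb9 by 0.15 (adjusted p 0.0428) and H2-K1 by 0.13 (adjusted p 0.0298). The calls of B2m, Tapbp, H2-D1 and Nlrc5 held without each single library, whereas those of H2-K1, Tap2 and Psmb9 were lost on leaving out some single libraries of either group, Psmb9 on leaving out any. Tap1 (0.10, SE 0.0495, adjusted p 0.158), Psmb8 (0.04, SE 0.0383, adjusted p 0.478) and Psmb10 (0.10, SE 0.0410, adjusted p 0.0864) did not pass. Nlrc5 differed most, with -0.65 (SE 0.0527, adjusted p 0.000195), or 1.57-fold lower in Ab_IR.

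Lists of related genes are read against all genes tested, of which 17.5% were called higher and 25.5% lower in IR against Ctrl (median -0.05). In Ab_IR against IR these shares were 39.4% and 29.4% (median 0.06), and in L_IR against IR 40.8% and 26% (median 0.07).

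Nonclassical class I genes, which encode heavy chains and relatives with narrower roles, mostly fell in IR and rose in the treated groups. Of 17 genes listed, 16 stood in the files and 14 were tested. In IR, 10 fell, 1 rose and 3 did not pass, with a median log2 fold change of -0.75. H2-Q6 stood at 95.4 ± 1.45 FPKM in Ctrl and 16.3 ± 0.748 FPKM in IR (SD, n = 3), a log2 fold change of -2.48 (adjusted p 5.11e-06). H2-Q7 changed by -2.00 and H2-Q4 by -1.84. These falls were larger than that of any of the 10 genes, with the same limit on reads shared between copies. The gene that rose was Hfe, an iron regulator with a class I fold (0.71, adjusted p 0.0421). In Ab_IR, 13 rose and 1 fell, and in L_IR 12 rose and 1 fell. H2-Q6 rose by 1.26 and 1.21 and H2-Q4 by 1.10 and 1.04 in these groups, H2-Q7 by 1.06 in L_IR, but at 40.4 ± 3.02 and 39.0 ± 1.95 FPKM H2-Q6 remained well under its Ctrl level. Fcgrt, which encodes the neonatal Fc receptor, rose by 1.05 in Ab_IR (adjusted p 8.44e-06).

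Of the general chaperones and trimming peptidases of the pathway, 14 were listed and tested. In IR 7 rose, 1 fell and 6 did not pass (median 0.21). Ab_IR had 1 higher and 11 lower than IR (median -0.43), and L_IR had 1 higher and 10 lower (median -0.18). Npepps, a cytosolic aminopeptidase, rose from 13.9 ± 1.06 to 28.9 ± 0.915 FPKM in IR (1.0, adjusted p 0.000156) and fell by 1.08 in Ab_IR and by 1.09 in L_IR. The endoplasmic reticulum chaperone genes Hspa5 (0.58, adjusted p 0.00425), Calr (0.47, adjusted p 0.00305) and Pdia3 (0.42, adjusted p 0.0276) rose in IR. In Ab_IR Calr fell by 0.57 and Hspa5 by 0.53, and in L_IR Pdia3 fell by 0.57 and Hspa5 by 0.56. The 1 gene that fell in IR was Erap1, which trims peptides for class I molecules inside the endoplasmic reticulum (-0.28, adjusted p 0.0125). These chaperones also serve protein folding outside the class I pathway.

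Among proteasome activators, assembly factors and constitutive catalytic subunits, 12 of 13 genes were tested and most did not pass in IR, with 1 higher and 2 lower. Psme1, a subunit of the interferon-inducible PA28 activator, was 72.3 ± 6.36 FPKM in Ctrl and 47.0 ± 1.32 FPKM in IR, with 77.1 ± 2.16 FPKM in the Ab_IR libraries and 65.5 ± 1.83 FPKM in the L_IR libraries. It fell by 0.61 in IR (adjusted p 0.00164) and rose by 0.70 in Ab_IR and 0.47 in L_IR. The assembly factor gene Psmg2 fell by 0.44 in IR, and Psme3, which encodes the nuclear PA28 activator, rose by 0.24 in IR and fell by 0.28 in L_IR. Psmg2 rose by 0.42 in Ab_IR, and Psme4, which encodes another nuclear activator, fell by 0.34. The treated groups had 6 higher and 3 lower in Ab_IR and 3 higher and 4 lower in L_IR.

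Transcription factors of the pathway were tested for 19 of 20 genes. In IR 7 fell, 1 rose and 11 did not pass (median -0.15). Irf8 fell by 1.60, from 25.05 ± 2.80 to 7.56 ± 0.192 FPKM (adjusted p 6.20e-05), Irf7 by 1.34 (adjusted p 0.00108) and Irf9 by 0.97 (adjusted p 0.000339). Irf1, an interferon-induced activator of several of the 10 genes, fell by 0.83 from 19.8 ± 1.75 to 10.7 ± 0.434 FPKM (adjusted p 0.000505). In Ab_IR 9 rose and 2 fell (median 0.16), and in L_IR 11 rose and 3 fell (median 0.14). Irf8 rose by 1.89 and 1.97, Irf7 by 1.68 and 1.64 and Irf1 by 0.74 and 0.96 in these groups. Stat3, which transmits cytokine signals, was the gene that rose in IR and fell by 1.01 in Ab_IR.

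Interferon receptors and signalling genes showed no single direction. Of 10 tested out of 11, 3 rose and 3 fell in IR, 3 rose and 4 fell in Ab_IR and 5 rose and 4 fell in L_IR. The feedback regulator Usp18, itself induced by type I interferon, fell by 1.16 in IR (adjusted p 0.0177) and rose by 1.67 in Ab_IR and 1.44 in L_IR. Socs3, a feedback inhibitor of cytokine receptors, went the other way, with 0.48 in IR, -0.90 in Ab_IR and -0.65 in L_IR. Jak2, a kinase of the interferon-gamma receptor, fell by 0.50 in IR and rose by 0.42 in L_IR, and Jak1, a kinase of both receptor types, fell by 0.40 in Ab_IR. Of 9 ligand genes listed, 4 stood in the files and 3 were tested. Ifng passed in L_IR against IR (0.48, adjusted p 0.0130), with 2.42 ± 0.597 FPKM in IR, 3.72 ± 0.358 FPKM in L_IR and 2.39 ± 0.725 FPKM in Ctrl. The cytokine gene Tnf rose by 0.78 in IR and fell by 0.52 in Ab_IR and by 0.51 in L_IR, and Il18 fell by 0.41 in IR and rose by 0.33 and 0.54.

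**Figure D4:**
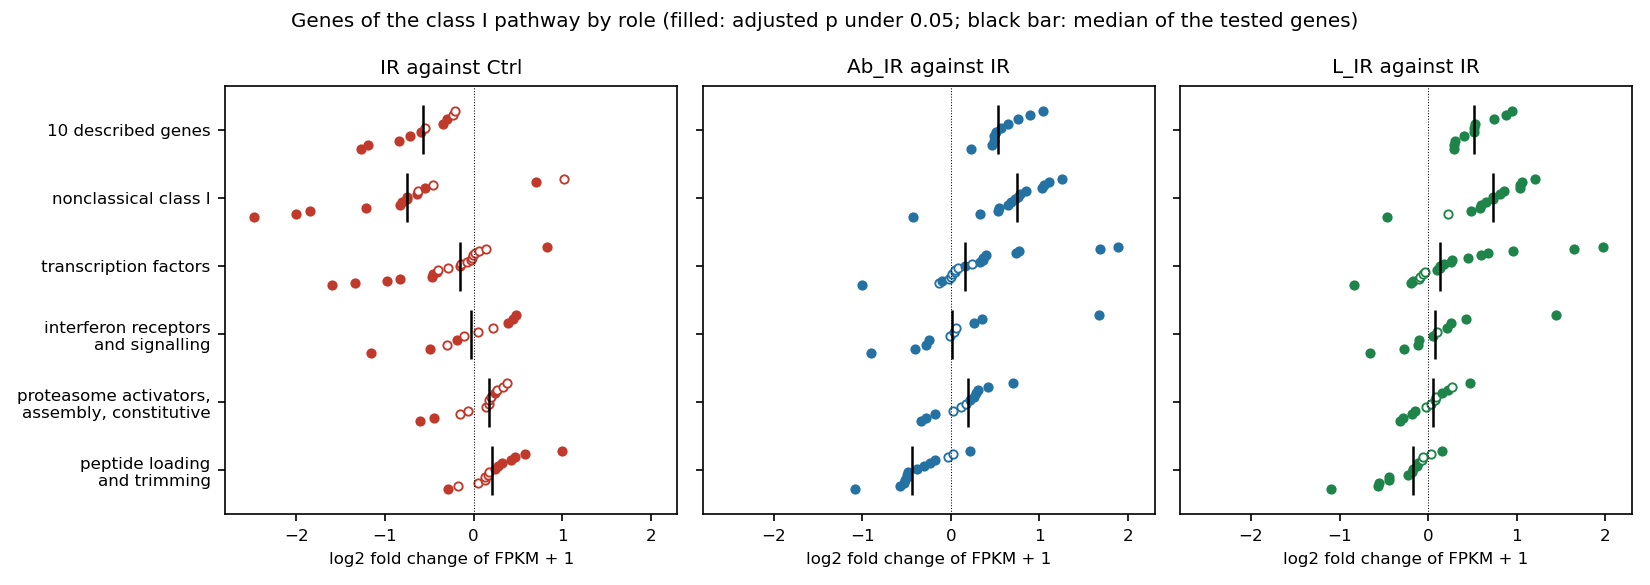
limma log2 fold changes of FPKM + 1 for the tested genes of each list in 3 comparisons, 1 point a gene, filled where the adjusted p was under 0.05, with a black bar at the list's median. The 10 described genes and the nonclassical class I genes lie mostly to the left in IR against Ctrl (medians -0.57 and -0.75) and to the right in the others, while the loading and trimming genes have medians of 0.21, -0.43 and -0.18.

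Genes with a profile most like the shared one were looked for among 5026 others with a mean of at least 10 FPKM. The measure was the root mean square difference, in log2 over the 12 libraries, from the median profile of the 10 genes after each gene was centred on its own mean. That median profile was lowest in IR, at -0.40, with Ctrl at 0.16, Ab_IR at 0.21 and L_IR at 0.08. Lgals9 was the nearest (0.0401). Psme1 (0.0513), Bscl2 (0.0534), Zfp740, Gpsm2, Prcp, Vps16, Acadm and Rfc2 (0.0645) were also among the 10 nearest. Lgals9, which encodes galectin-9, averaged 108 ± 5.11 FPKM in Ctrl and 74.5 ± 1.72 FPKM in IR, with 111 ± 2.81 FPKM for Ab_IR and 103 ± 1.33 FPKM for L_IR. Of the 10 genes themselves, Tapbp lay nearest the shared profile (0.0935) and Nlrc5 farthest (0.297).

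Markers of other bone marrow cells moved with the groups. In bulk samples, fewer cells of a type and less RNA per cell cannot be told apart. Of the dendritic cell and class II list, 8 of 9 tested genes fell in IR, and its summed level was 209 to 217 FPKM in Ctrl, 135 to 144 in IR, 235 to 254 in Ab_IR and 290 to 294 in L_IR. Of the macrophage and monocyte list, 5 of 8 fell, with sums of 260 to 283, 109 to 110.4, 215 to 228 and 205 to 216 FPKM in the same order of groups. Erythroid (5 of 5), megakaryocyte (4 of 4), mast cell and basophil (4 of 4) and stroma and endothelium (4 of 4) markers fell in IR and rose in both treated groups. Their sums were 2323 to 2769 FPKM in Ctrl and 356 to 364 in IR for erythroid cells. For megakaryocytes they were 49.4 to 65.3 and 11.3 to 13.2 FPKM in that order. For mast cells and basophils they were 567 to 636 and 199.98 to 207 FPKM. For stroma and endothelium they were 135 to 161 and 13.8 to 14.6 FPKM. Ab_IR held 2307 to 2495, 132 to 136, 750.0 to 799.7 and 47.7 to 52.6 FPKM of these lists, and L_IR 1126 to 1163, 80.7 to 85.7, 463 to 486 and 47.3 to 48.8 FPKM.

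The other lists held plasma cells, neutrophils, T and NK cells and B cells. Plasma cell markers rose in IR (6 of 6), with sums of 629 to 740.1 FPKM in Ctrl, 988 to 1012 in IR, 1079 to 1168 in Ab_IR and 1457 to 1483 in L_IR. Jchain, which encodes the joining chain of antibodies, made up most of these sums, at 720 ± 11.1 FPKM in IR and 954 ± 47.5 FPKM in Ab_IR. In Ab_IR against IR 2 of the 6 rose and 4 fell, Xbp1 most (-1.06), and in L_IR 4 rose and 1 fell. Neutrophil markers rose for 3 of 7, from 8122 to 9982 FPKM in Ctrl to 12509 to 12863 in IR, and stood at 9359 to 9959 in Ab_IR and 7128 to 7336 in L_IR. T and NK cell markers fell for 3 of 8 and held sums of 176 to 291 FPKM in Ctrl, 231 to 236 in IR, 294 to 300.5 in Ab_IR and 262 to 269.9 in L_IR. Nkg7, a gene of cytotoxic granules, made up most of these sums, at 209 ± 2.92 FPKM in IR and 215 ± 5.22 FPKM in L_IR. Against IR, 6 of the 8 rose in Ab_IR and 7 of the 8 in L_IR. Among them Trac, the alpha chain constant region of the T cell receptor, was at 2.46 ± 0.357 FPKM in IR, 6.60 ± 0.625 FPKM in Ab_IR and 10.3 ± 0.538 FPKM in L_IR. Cd3g rose by 1.12 and Cd8a by 1.17 in L_IR. In Ctrl, Trac averaged 5.02 FPKM. B cell markers fell for 1 of 2 tested, with sums of 26.8 to 32.2, 24.1 to 24.8, 40.2 to 40.3 and 44.3 to 46.0 FPKM. No gene of these lists was at 0 in all 12 libraries, and their part in the class I differences was not tested.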

How the data were processed

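RNA was sequenced from sorted bone marrow HSCs, 3 libraries for each of the 4 labels Ctrl, IR, Ab_IR and L_IR. The submitters' processing notes name fastp, HISAT2, StringTie and GRCm38 (mm10), while the study's methods name fastp, RSEM and DESeq2; the annotation is not given in the sources used here. The values deposited by the authors were read as FPKM per gene. Their low values show no clear steps of whole reads, so no count test was run and depth is unknown.

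Values were tested as log2(FPKM + 1) with limma 3.58.1 in R 4.3.3 (lmFit, eBayes with trend) fitted to each pair of groups, keeping genes that reached 1 FPKM in 3 or more of its libraries, with Benjamini-Hochberg adjustment over all genes tested. Fold changes on this scale understate changes of low genes. Ratios of FPKM were tested by two-sided exact permutation. Whether replicate numbers pair libraries across groups is not known. Deviations of same-numbered libraries from their group means showed no steady correlation (18 pairs, r from -0.27 to 0.208, 2 above 0.1), which cannot exclude pairing. All 10 genes are named in every comparison. From each other pathway list the 3 largest changes past the test were named per comparison, with Psmb5, Psmb6, Psmb7 and Irf1 always. The 10 nearest profiles (genes averaging 10 FPKM or more) were named too. Some genes these rules name are not reported here. Hfe, Erap1, Psme2 and the marker genes named singly, and values of the listed genes in further comparisons, were added after their values were seen. The genes and lists were chosen with earlier results of these data known. Positions are from GENCODE M21, promoters from RefSeq GRCm38.p6. Alternatives were a pseudocount of 0.1, no filter, a mean of at least 10 FPKM, quantile and median ratio scaling, a fit without trend, a joint fit of the 12 libraries, the replicate block, a term for the heart split, and omission of single libraries. Scripts were tested on simulated data.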

Additional observations from a re-analysis of the deposited data

How the results depend on the processing

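The direction and the call of the 10 genes were most stable in the comparisons with IR. The count of genes past the test stayed between 6 and 10 for IR against Ctrl and between 9 and 10 for Ab_IR against IR and L_IR against IR over all alternatives, and a mean of at least 10 FPKM took Nlrc5 out of the test. Over all 6 comparisons, 809 values of single genes kept their direction and side of the threshold, 50 lost the call, 29 gained it and 6 turned direction. For Ab_IR against L_IR the count of 7 became 4 with no filter and 4 with all 12 libraries in one fit, and 4 to 6 without single libraries. For Ab_IR against Ctrl the count of 1 became 0 with no filter (limma, with 5 genes at an unadjusted p under 0.05), 5 with all 12 libraries and 9 with the heart split as a term, and 0 to 2 without single libraries, where counts of 0 went with 2 to 6 genes at an unadjusted p under 0.05. For L_IR against Ctrl the count of 3 became 5 with all 12 libraries and 6 with the heart split, and 1 to 5 without single libraries. The order of the genes depended on the setting. Under quantile normalization H2-K1 (-1.33) was lower than Tap1 (-1.29) in IR, and with the heart split Psmb9 exceeded Tap1 in both treated groups. With that split, every comparison of a treated group with Ctrl or IR is adjusted through Ctrl replicate 1 alone. Values that turned direction were all small: Psmb8 in Ab_IR against L_IR became -0.027 under quantile normalization, B2m in Ab_IR against Ctrl 0.14 and Tapbp in L_IR against Ctrl 0.059 with the heart split. Without single libraries, B2m in Ab_IR against Ctrl ranged from -0.20 to 0.0068, Psmb9 in L_IR against Ctrl from -0.060 to 0.36, Tap2 there from -0.038 to 0.016, and the log2 ratio of Psmb9 to Psmb6 in Ab_IR against L_IR from -0.0025 to 0.061. Whether the replicate numbers pair libraries is not known. With the replicate block, 7 genes were called for IR against Ctrl, 10 each for Ab_IR and L_IR against IR, 5 for Ab_IR against L_IR, 0 for Ab_IR against Ctrl (limma, 2 at an unadjusted p under 0.05) and 1 for L_IR against Ctrl. The cause of these shifts was not tested. The unknown depth limits any statement on low values, those of Nlrc5 among these genes.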

Other observations

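The activator subunits of the proteasome were set against each other after their values were seen. The ratio of Psme1, part of the interferon-inducible PA28 activator, to Psme3, which encodes its nuclear relative, was 0.617, 0.839 and 0.810 in Ctrl and 0.403, 0.428 and 0.406 in IR. It was 0.779, 0.853 and 0.840 in Ab_IR and 0.729, 0.699 and 0.679 in L_IR, so that the IR libraries lay below the other 9 (two-sided exact permutation p 0.1, the smallest possible). Psme2, which encodes the partner of PSME1, did not pass limma in IR against Ctrl (0.18, SE 0.214, adjusted p 0.532), with 23.59, 42.22 and 39.78 FPKM in Ctrl and 36.45, 40.24 and 39.84 FPKM in IR. Ctrl replicate 1 was again the low library.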
